A study of Mus musculus with 5 samples.

Results

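The 76 genes described here carry the symbols of mitochondrial ribosomal proteins, and all but Mrps36 encode proteins of that ribosome. They were taken by symbol from the RefSeq gene table, as every gene whose symbol starts with Mrpl or Mrps followed by a number, leaving out symbols that mark a pseudogene, and made up 76 of 18307 genes. Of these, 47 carry an Mrpl and 29 an Mrps symbol. The rule used no measured value, but the members were chosen with earlier results of these data known. RNA was sequenced from ventricles of the heart of mouse embryos of the outbred CD-1 strain at embryonic day 10.5 (E10.5). All dams received an injection each day between E6.5 and E9.5, in the vehicle group with 0.9% NaCl and in the caffeine group with caffeine, a blocker of adenosine receptors, at 20 mg/kg. The labels name no genetic alteration in either group. A library is a pool of ventricles from embryos that shared dams, and there were 2 vehicle and 3 caffeine libraries. The comparison asks which genes differ in embryonic ventricles after the dam was given caffeine.

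Mitochondria carry their own ribosome, which translates the few membrane subunits of the respiratory chain and of ATP synthase that are encoded in mitochondrial DNA. Its protein subunits are all encoded in the nucleus, made in the cytosol and imported, and then assembled on mitochondrial ribosomal RNAs into a small subunit, which decodes the messenger RNA, and a large subunit, which joins the amino acids. Some subunits descend from bacterial ribosomal proteins and others exist only in mitochondria. The adult heart depends on oxidative phosphorylation, and inherited defects of several of these proteins, among them MRPL3, MRPL44 and MRPS22, cause cardiomyopathy in people.

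By current structural assignments, 49 of the 76 genes encode large-subunit proteins and 26 small-subunit proteins. Symbols do not always give the place: Mrps18a and Mrps30 encode proteins of the large subunit, and Mrps36 encodes a subunit of the oxoglutarate dehydrogenase complex, so that 1 member belongs to no ribosomal subunit. Of the ribosomal members, 48 have a bacterial counterpart and 27 are specific to mitochondria. The genes lie on 17 chromosomes, and 26 of them start within 1000 bases of a gene that is transcribed the other way. In 1 such pair both genes are members: Mrpl46 and Mrps11 on chromosome 7 start 42 bases apart.

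Promoters of 67 members were found among RefSeq promoters on GRCm38.p6, each a window of 300 bases that runs from 250 bases before to 50 bases after the start. They were searched on both strands for the binding motifs of nuclear respiratory factor 1 (NRF1), of ETS-family factors and of YY1. NRF1 is a regulator of genes for mitochondrial proteins. The letters TATAAA were also searched for on both strands, at any place in the window. The NRF1 motif GCGCNTGCG was found in 17 members, 25.4% of those with a promoter, in 6.31% of all 32851 promoters and in 12.5% of the 13087 promoters of genes tested here. The ETS motif CCGGAAGT was found in 11 members, or 16.4%, against 3.89% of all promoters and 7.37% of those of tested genes. For the YY1 motif AAGATGGCG the count was 8 members, or 11.9%, against 1.4% and 2.7%. The letters TATAAA were found in 4 members, or 5.97%, against 13.6% and 7.23%. These matches lay 68 to 181 bases before the start used. None of the NRF1, ETS and YY1 motifs was found in 34 members. Some windows missed the deposited start of the gene. The start used lay furthest from it for Mrps21 (895 bases), Mrpl20 (740), Mrps10 (310) and Mrpl48 (305). Mrps21 is counted among the NRF1 matches, and Mrpl20, Mrps10 and Mrpl48 among the members with none. The median number of CG dinucleotides was 21 in members, 20 in promoters of tested genes and 7 in all promoters. A match is a description of the letters and was not tested for binding. Promoters that show these arrangements are printed below from 5′ to 3′ in the direction of the gene, all on the plus strand, with the NRF1, ETS and YY1 matches in capitals. Mrpl12 (chr11:120484387-120484686) has a single NRF1 match and Mrpl45 (chr11:97315466-97315765) has 3. Mrps26 (chr2:130563507-130563806) has an ETS match beside 2 NRF1 matches that overlap each other, and is 1 of 2 members with both motifs. Mrpl33 (chr5:31613701-31614000), which had the most negative fold change of the members, has an ETS match that crosses its start. Mrps27 (chr13:99344536-99344835) has an ETS and a YY1 match. The window of Mrps11 (chr7:78782881-78783180) also spans the start of Mrpl46 and has a YY1 match.
Mrpl12: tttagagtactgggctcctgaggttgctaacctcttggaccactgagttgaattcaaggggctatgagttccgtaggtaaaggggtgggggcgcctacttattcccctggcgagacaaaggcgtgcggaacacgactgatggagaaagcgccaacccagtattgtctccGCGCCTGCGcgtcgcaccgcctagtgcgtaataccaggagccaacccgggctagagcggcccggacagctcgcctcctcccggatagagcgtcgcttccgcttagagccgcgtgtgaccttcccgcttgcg
Mrpl45: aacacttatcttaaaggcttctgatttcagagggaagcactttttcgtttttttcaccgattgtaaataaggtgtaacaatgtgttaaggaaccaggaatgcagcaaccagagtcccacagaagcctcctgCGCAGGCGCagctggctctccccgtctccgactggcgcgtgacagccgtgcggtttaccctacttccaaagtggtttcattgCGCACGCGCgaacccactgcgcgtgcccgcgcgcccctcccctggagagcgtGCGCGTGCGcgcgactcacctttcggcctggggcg
Mrps26: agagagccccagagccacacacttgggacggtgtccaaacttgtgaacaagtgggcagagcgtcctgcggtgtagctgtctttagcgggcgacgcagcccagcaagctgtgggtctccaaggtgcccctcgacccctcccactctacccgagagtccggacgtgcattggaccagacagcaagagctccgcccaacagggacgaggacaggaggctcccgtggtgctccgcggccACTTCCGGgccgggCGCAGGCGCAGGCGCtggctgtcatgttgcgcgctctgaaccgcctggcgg
Mrpl33: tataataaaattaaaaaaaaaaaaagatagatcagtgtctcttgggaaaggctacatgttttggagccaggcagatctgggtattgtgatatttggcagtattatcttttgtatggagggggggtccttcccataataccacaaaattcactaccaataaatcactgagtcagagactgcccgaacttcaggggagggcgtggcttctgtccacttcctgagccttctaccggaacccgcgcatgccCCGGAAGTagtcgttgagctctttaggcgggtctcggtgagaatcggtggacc
Mrps27: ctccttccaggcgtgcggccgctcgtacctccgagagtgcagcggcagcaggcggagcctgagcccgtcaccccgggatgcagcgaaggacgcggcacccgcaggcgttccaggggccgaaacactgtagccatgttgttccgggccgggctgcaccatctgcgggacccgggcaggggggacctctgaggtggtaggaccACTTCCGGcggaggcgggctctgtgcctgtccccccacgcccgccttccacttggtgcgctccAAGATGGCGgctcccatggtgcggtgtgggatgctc
Mrps11: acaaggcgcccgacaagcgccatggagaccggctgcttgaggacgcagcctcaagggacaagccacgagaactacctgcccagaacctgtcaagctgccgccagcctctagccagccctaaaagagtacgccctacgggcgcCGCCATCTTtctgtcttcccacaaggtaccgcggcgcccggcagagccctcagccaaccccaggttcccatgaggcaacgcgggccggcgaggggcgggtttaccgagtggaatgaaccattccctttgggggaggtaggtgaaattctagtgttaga

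The RefSeq gene totals were 21713381 to 25048134 counts per library, and 13829 genes passed the filter on low counts. All 76 members passed it, with 251 to 4079 counts in a library. Values below are counts per 1000000 counts (CPM) after scaling between libraries by the trimmed mean of M-values (TMM). The 6 cardiomyocyte markers (such as Tnnt2 and Myh6) were abundant, with summed levels of 30945 and 28651 CPM in the vehicle libraries and 24901 to 26391 CPM in the caffeine libraries. Of other cell types, the 6 erythroid markers summed to 5992 to 10464 CPM, the highest sum being in vehicle replicate 1, and the 5 of 6 tested hepatic endoderm markers to 117 CPM in vehicle replicate 2 against 7.22 to 37.6 CPM elsewhere. Endocardial (986 to 1198 CPM), epicardial (305 to 438 CPM) and cushion mesenchyme markers (146 to 165 CPM) summed to less than the cardiomyocyte or erythroid markers. So did macrophage markers (2.02 to 9.14 CPM for the 2 of 4 tested). The ribosomal RNA precursor Rn45s took 0.864% and 0.520% of counts in vehicle replicates 1 and 2 and 0.172% to 0.276% in the caffeine libraries. In bulk samples, fewer cells of a type and less RNA per cell cannot be told apart.

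Mitochondrial ribosomal protein genes were expressed above the middle of the transcriptome. Their mean level over the 5 libraries ran from 12.7 to 146 CPM with a median of 45.1 CPM, the 64.5th percentile of all genes tested, whose median was 26.1 CPM. Together they took 0.398% and 0.342% of all counts in vehicle replicates 1 and 2, and 0.340%, 0.368% and 0.366% in caffeine replicates 1, 2 and 3. Per kilobase of transcript, the scale on which levels of different genes can be compared, the highest was Mrpl12, the protein of the flexible stalk that contacts translation factors, at 154 ± 17.9 CPM per kb (SD, n = 5). Mrps21, a small-subunit protein with a bacterial counterpart, followed at 145 ± 21.2 CPM per kb (SD, n = 5). Next came Mrpl42 at 106 ± 13.9 and Mrpl52 at 105 ± 11.0 CPM per kb (SD, n = 5), both large-subunit proteins without a bacterial counterpart. The step from Mrps21 to Mrpl42 was the only 1 of the 75 steps between neighbours in the order at which the ranges of the 5 libraries did not overlap. The median was 40.7 CPM per kb. The lowest values were those of Mrps25 (8.68 ± 0.958), Mrpl17 (8.75 ± 0.849), Mrpl1 (9.44 ± 0.767) and Mrpl35 (10.4 ± 1.71 CPM per kb; SD, n = 5). These genes also had long annotated transcripts, of 6063, 6712, 3159 and 3695 bases against a member median of 1024. Near the top, those of Mrps21 and Mrpl52 were short, at 405 and 412 bases. The places at both ends therefore depend on that annotation. In CPM Mrps25 and Mrpl17 were not low, at 52.6 and 58.7 in caffeine replicate 2.

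**Figure D1:**
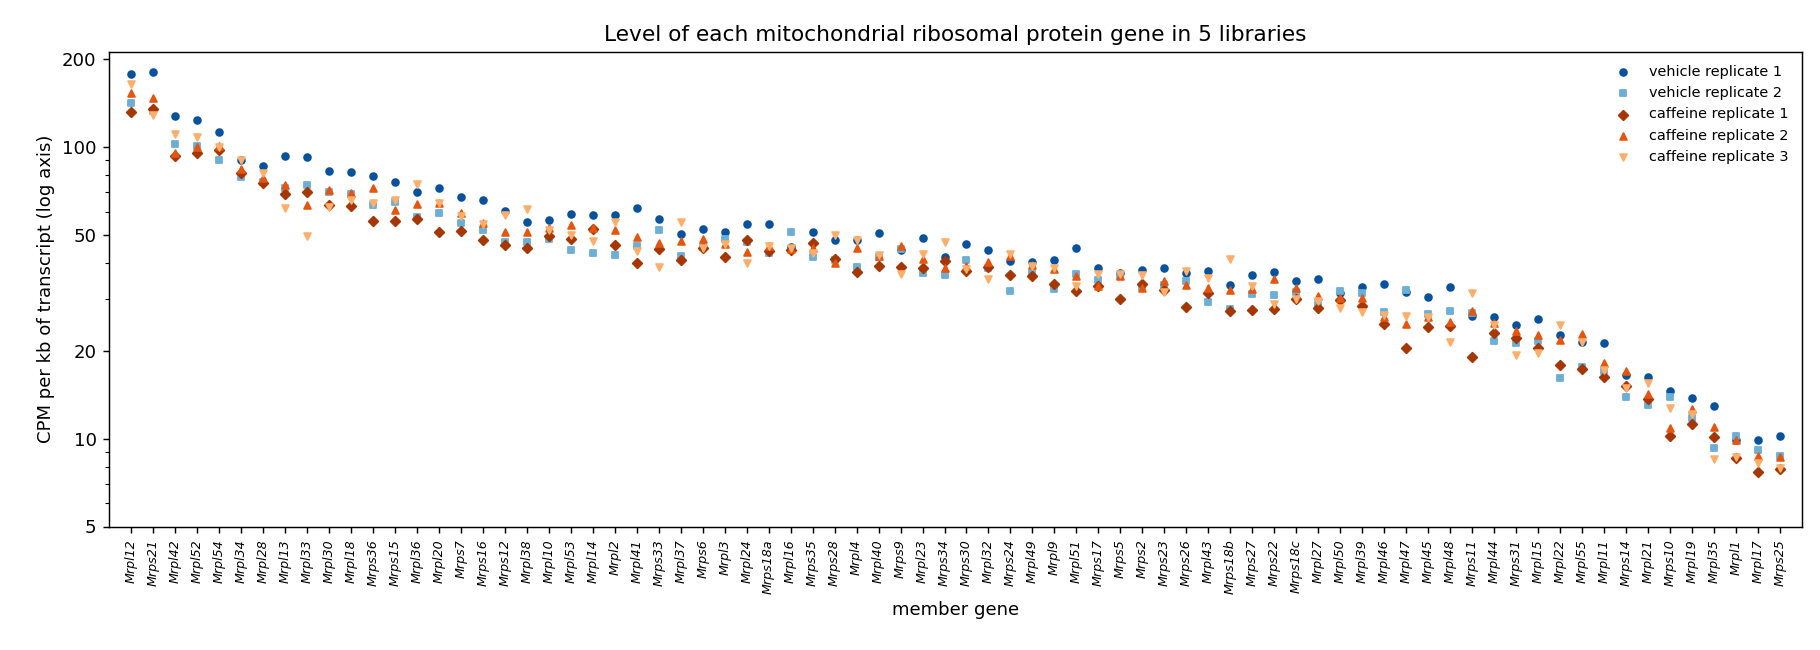
Level of each of the 76 genes in CPM per kb of transcript length (log axis), in order of the mean over 5 libraries, with 1 symbol per library. Mrpl12 and Mrps21 stand at the top, at means of 154 and 145, most neighbours overlap, and the circles of vehicle replicate 1 are the highest symbol for 58 genes.

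The members varied together from library to library. The median of their log2 CPM was 5.68 for vehicle replicate 1, 5.46 for vehicle replicate 2, and 5.41, 5.51 and 5.44 in caffeine replicates 1, 2 and 3. Vehicle replicate 1 was high, and vehicle replicate 2 lay among the caffeine libraries. Over all genes tested the same medians were 4.66, 4.70, 4.70, 4.72 and 4.72. Vehicle replicate 1 held the highest value for 58 of the 76 members (76.3%), against 21.8% of all genes tested, and the lowest value for none of them. Caffeine replicate 1 held the lowest value for 41 members and the highest for none. The highest value was in caffeine replicate 3 for 11 members, in vehicle replicate 2 for 4 and in caffeine replicate 2 for 3. Vehicle replicate 1 was also the library with the most Rn45s and the highest erythroid sum, and the cardiomyocyte markers were also highest there in sum and for 4 of 6 genes. Their median log2 fold change was -0.23, with 5 of 6 negative. Of the 6, 3 were higher in both vehicle libraries than in every caffeine library, beside 9.27% of all genes tested. Like the members, the cardiomyocyte markers had their lowest sum in caffeine replicate 1. The part of Rn45s, erythroid or cardiomyocyte RNA in the members' levels was not tested. The median coefficient of variation of single members over the 5 libraries was 10.6% (4.55% to 22.6%). It was 12.7% for all genes tested, whose median level was lower.

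**Figure D2:**
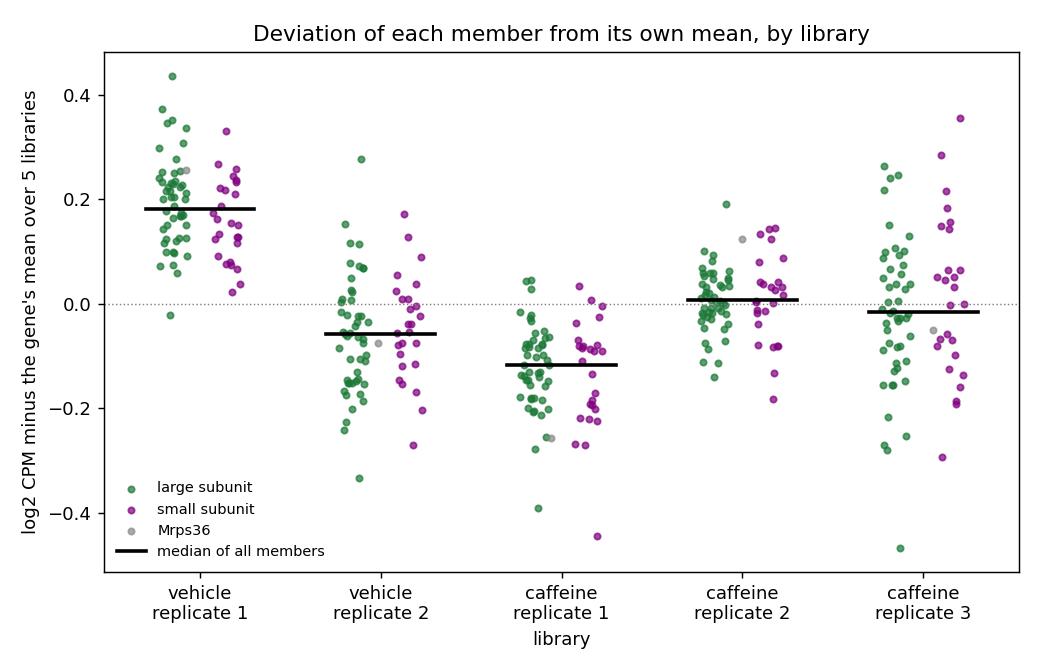
Log2 CPM of each member minus its own mean over the 5 libraries, by library, with large-subunit genes, small-subunit genes and Mrps36 apart and the median of all members as a bar. The points of vehicle replicate 1 lie almost all above 0, those of caffeine replicate 1 mostly below, and those of vehicle replicate 2 overlap those of the caffeine libraries.

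Against vehicle, no member rose or fell in caffeine-treated ventricles at a false discovery rate (FDR) of 0.05 in edgeR's quasi-likelihood test (smallest adjusted p = 0.889). Over all genes tested 0.00723% were called. DESeq2, which called 0.13% of all genes, and limma-voom also called 0 members. At an unadjusted p under 0.05 edgeR gave 4 members lower and 0 higher, beside 2.07% lower and 3.13% higher of all genes tested. The log2 fold changes were small and mostly negative. They ran from -0.46 to 0.16 with a median of -0.11 (quartiles -0.17 and -0.03), and were negative for 62 members and positive for 14. Over all genes tested the median was 0.01, and 47% were negative. The SD of the fold changes was 0.12 over the members and 0.28 over all genes tested. Scaling by total counts alone moved all genes alike: 49 members were then negative and 27 positive with a median of -0.05, while 33.6% of all genes were negative with a median of 0.07. Both vehicle libraries lay above all 3 caffeine libraries for 16 members, 21.1% of them, beside 9.27% of all genes tested. The opposite order was found for 0 members, beside 11.2% of all genes. Scaled by total counts alone, both vehicle libraries were the higher for 9 members, beside 5.18% of all genes, and all caffeine libraries for 0, beside 17% of all genes.

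**Figure D3:**
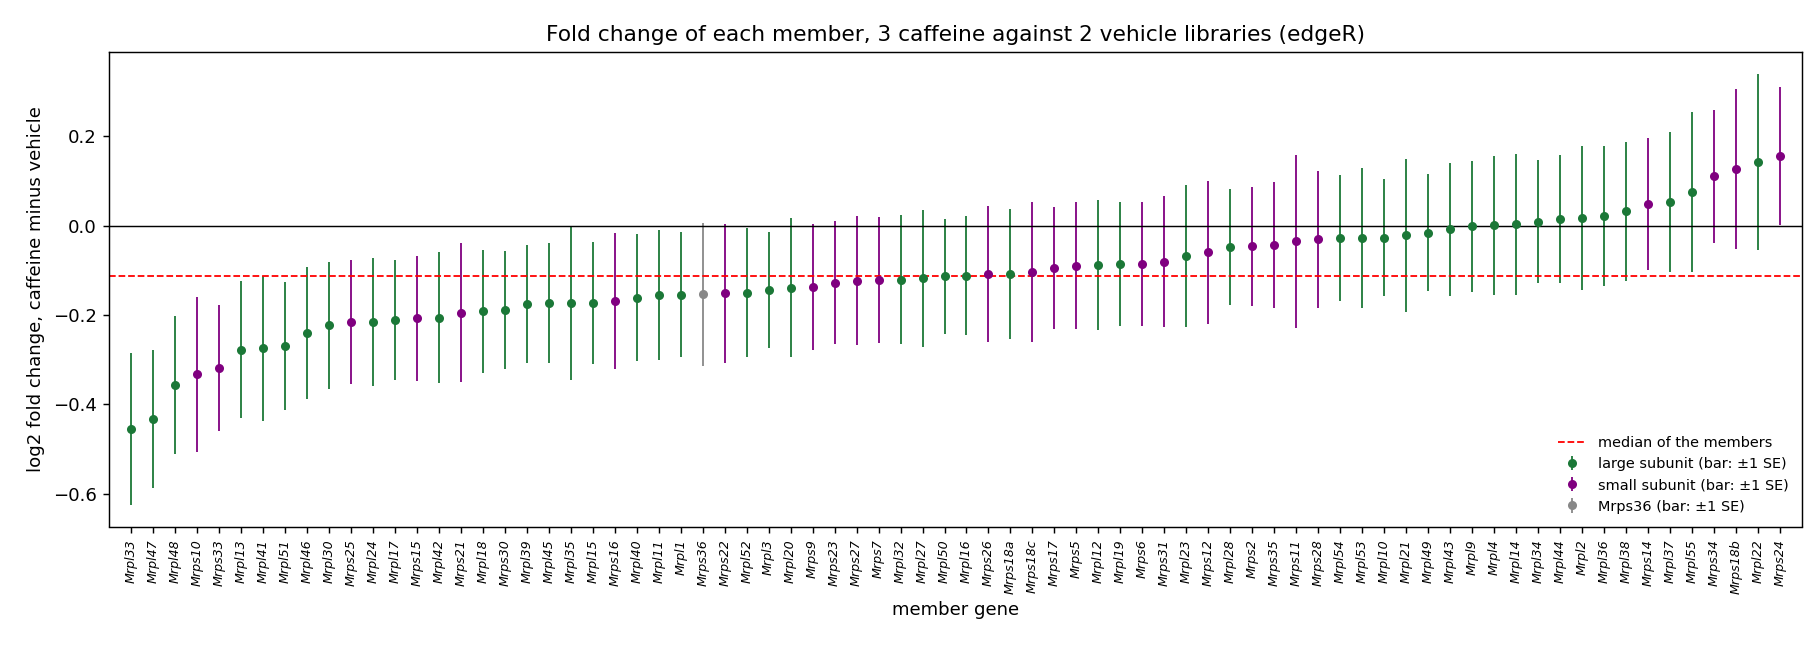
Log2 fold change of each member, caffeine minus vehicle, with bars of 1 standard error from edgeR, ordered by value and marked by subunit. Values run from -0.46 for Mrpl33 to 0.16 for Mrps24, and most bars cross 0.

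Among large-subunit genes, the median log2 fold change was -0.12 over 49 members, with 39 negative and 10 positive, and none passed FDR 0.05. Both vehicle libraries were the higher for 13 of the 49, beside 9.27% of all genes tested. The smallest p was that of Mrpl47 (chr3:32727497-32736755, minus strand), the counterpart of bacterial L29, which sits near the exit of the peptide tunnel. It measured 27.7 and 28.2 CPM in vehicle replicates 1 and 2 and 17.8, 21.6 and 22.9 CPM in caffeine replicates 1, 2 and 3. All caffeine libraries were below both vehicle libraries, which were close to each other, and the log2 fold change was -0.43 (SE 0.15, edgeR adjusted p = 0.889). Mrpl33 (chr5:31613951-31622644, plus strand), whose promoter with the ETS match is printed above and whose bacterial counterpart lies close to where transfer RNA leaves the ribosome, measured 43.2 and 34.6 CPM in vehicle pools, and 32.5, 29.5 and 23.1 CPM in caffeine pools. The groups did not overlap, although the vehicle libraries differed more from each other than vehicle replicate 2 did from caffeine replicate 1 (log2 fold change -0.46, SE 0.17, edgeR adjusted p = 0.912). Mrpl48 (chr7:100549117-100607996, minus strand) measured 30.2 and 24.9 CPM in vehicle pools, and 22.1, 22.9 and 19.5 CPM in caffeine pools, again without overlap (-0.36, SE 0.15). This gene overlaps Rab6a on the other strand, and whether the counting used strand is not given in the sources used here. Mrpl51 measured 68.2 and 55.4 CPM in vehicle pools, and 48.5, 54.8 and 50.6 CPM in caffeine pools, so that vehicle replicate 2 stood barely above caffeine replicate 2 (-0.27, SE 0.14).

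The large-subunit genes given next were named whatever their p. Their differences were smaller than those of the genes above, which were named for the smallest p. Mrpl3, which reaches toward the peptidyl transferase centre, measured 78.1 and 74.1 CPM in vehicle pools, and 64.3, 71.3 and 71.1 CPM in caffeine pools, without overlap but with a log2 fold change of only -0.14 (SE 0.13). Mrpl44, which has a ribonuclease III fold, measured 37.1 and 30.9 CPM in vehicle pools, and 32.7, 35.6 and 34.8 CPM in caffeine pools, which all lay between the vehicle values. The stalk protein gene Mrpl12 measured 168 and 134 CPM in vehicle pools, and 125, 145 and 156 CPM in caffeine pools (-0.09, SE 0.14), with the groups overlapping. Mrpl11, the base of that stalk, measured 61.5 and 49.0 CPM in vehicle pools, and 46.9, 52.4 and 49.4 CPM in caffeine pools (-0.16, SE 0.15). Mrpl4, at 61.5 and 49.9 CPM in vehicle pools, and 48.0, 57.8 and 61.5 CPM in caffeine pools, had a fold change of 0.00 (SE 0.16). For Mrpl12 and Mrpl11 vehicle replicate 1 was above every caffeine library, for Mrpl4 it was level with caffeine replicate 3, and for all 3 genes vehicle replicate 2 lay within the caffeine range. Mrps30, a large-subunit protein despite its symbol, measured 73.6 and 65.0 CPM in vehicle pools, and 59.7, 62.3 and 60.5 CPM in caffeine pools, without overlap (-0.19, SE 0.13). Mrps18a, the member of the S18 family that sits in the large subunit, measured 46.8 and 37.3 CPM in vehicle pools, and 38.0, 39.5 and 39.6 CPM in caffeine pools, which lay between the vehicle values (-0.11, SE 0.14).

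The positive end of the large subunit held genes whose groups overlapped. Mrpl22, a protein of the wall of the peptide tunnel, measured 16.3 and 11.7 CPM in vehicle pools, and 13.0, 15.8 and 17.7 CPM in caffeine pools (0.14, SE 0.20). Mrpl55 measured 16.8 and 13.8 CPM in vehicle pools, and 13.6, 17.9 and 16.8 CPM in caffeine pools (0.07, SE 0.18). Mrpl37 measured 75.1 and 63.1 CPM in vehicle pools, and 61.1, 71 and 83.0 CPM in caffeine pools (0.05, SE 0.16). Each of the 3 had a caffeine library on either side of at least 1 vehicle library. Of the most and least abundant genes per kilobase not yet given, Mrpl42 (-0.21, SE 0.15), Mrpl52 (-0.15, SE 0.15), Mrpl17 (-0.21, SE 0.13), Mrpl1 (-0.15, SE 0.14) and Mrpl35 (-0.17, SE 0.17) all had negative fold changes smaller than 2 SE.

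Among small-subunit genes, the median log2 fold change was -0.10 over 26 members, with 22 negative and 4 positive, and again none passed FDR 0.05. Both vehicle libraries were the higher for 3 of the 26, Mrps10, Mrps25 and Mrps33, beside 9.27% of all genes tested. Whether the subunits differ in this count was not tested. Mrps33 (chr6:39801807-39810936, minus strand), a protein specific to mitochondria, measured 57.6 and 52.7 CPM in vehicle pools, and 45.6, 47.7 and 39.4 CPM in caffeine pools. All 3 caffeine libraries were lower than both vehicle libraries (-0.32, SE 0.14). Mrps10, whose bacterial counterpart lies in the head of the subunit, measured 14.8 and 14.2 CPM in vehicle pools, and 10.4, 11.1 and 13.0 CPM in caffeine pools (-0.33, SE 0.17). Mrps25 measured 62.1 and 52.7 CPM in vehicle pools, and 47.7, 52.6 and 48.1 CPM in caffeine pools, with vehicle replicate 2 and caffeine replicate 2 nearly level (-0.22, SE 0.14). It overlaps Nr2c2.

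Mrps12, whose bacterial counterpart monitors codon pairing, measured 41.3 and 32.3 CPM in vehicle pools, and 31.4, 34.8 and 39.8 CPM in caffeine pools (-0.06, SE 0.16). Mrps7, an RNA-binding protein of the head, measured 89.4 and 72.9 CPM in vehicle pools, and 68.3, 78.6 and 76.9 CPM in caffeine pools (-0.12, SE 0.14). Both had vehicle replicate 2 inside the caffeine range. Mrps16, in which defects cause fatal lactic acidosis in infants, measured 37.2 and 29.4 CPM in vehicle pools, and 27.1, 31.0 and 30.9 CPM in caffeine pools (-0.17, SE 0.15). Mrps22 measured 44.5 and 37.1 CPM in vehicle pools, and 33.4, 42.2 and 34.7 CPM in caffeine pools (-0.15, SE 0.15). Mrps6 measured 40.8 and 35.4 CPM in vehicle pools, and 35.0, 37.7 and 35.0 CPM in caffeine pools (-0.09, SE 0.14), and overlaps Slc5a3 on the same strand. The groups overlapped for all 3 of these genes. Mrps21 gave -0.20 (SE 0.16), with 73.1 and 53.7 CPM in vehicle pools, and 54.6, 59.5 and 52.1 CPM in caffeine pools.

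The most positive fold change of all members was that of Mrps24 (chr11:5703983-5707699, minus strand), the counterpart of bacterial S3 at the entry of the messenger RNA channel. It measured 40.5 and 31.9 CPM in vehicle pools, and 36.3, 42.2 and 42.7 CPM in caffeine pools (0.16, SE 0.15). Mrps34 measured 37.6 and 32.6 CPM in vehicle pools, and 36.5, 34.6 and 42.5 CPM in caffeine pools (0.11, SE 0.15). For both genes 1 or 2 caffeine libraries exceeded vehicle replicate 1 and the rest lay between the vehicle libraries. Of the S18 family in this subunit, Mrps18b measured 35.4 and 29.4 CPM in vehicle pools, and 28.9, 34.0 and 43.3 CPM in caffeine pools (0.13, SE 0.18). Mrps18c measured 17.5 and 15.9 CPM in vehicle pools, and 15.1, 16.5 and 15.1 CPM in caffeine pools (-0.10, SE 0.16). Caffeine replicate 3 was thus the highest library for Mrps18b and among the lowest for Mrps18c. Outside the ribosome, Mrps36 measured 50.3 and 39.9 CPM in vehicle pools, and 35.2, 45.8 and 40.6 CPM in caffeine pools (-0.15, SE 0.16).

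By descent, the 48 members with a bacterial counterpart had a median log2 fold change of -0.10 (38 negative, 10 positive) and the 27 specific to mitochondria -0.13 (23 negative, 4 positive). Both vehicle libraries were the higher for 7 of the former (14.6%) and 9 of the latter (33.3%), beside 9.27% of all genes tested. The difference by descent was not tested. By promoter motif, the median was -0.11 over the 17 members with an NRF1 match (13 negative), -0.14 over the 11 with an ETS match (11 negative), -0.07 over the 8 with a YY1 match (5 negative) and -0.12 over the 34 with none (30 negative). Mrpl12, Mrpl45 and Mrps26, whose NRF1 matches are printed above, had log2 fold changes of -0.09, -0.17 and -0.11.

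The lean of the members depended on which vehicle libraries were in the fit. Without vehicle replicate 1 the median log2 fold change was 0.01, with 35 members negative and 41 positive. Both orders of non-overlapping groups were then about as frequent. In that fit 16 members were higher in vehicle replicate 2 and 17 higher in all caffeine libraries (24.6% and 25.1% of all genes). Without vehicle replicate 2 the median was -0.24, all 76 members were negative, and 62 were higher in vehicle replicate 1 than in every caffeine library (25.2% of all genes). Leaving out a caffeine library moved the median less, to -0.08, -0.14 and -0.12 without replicates 1, 2 and 3. Mrpl47 depended least on the vehicle libraries, with fold changes of -0.45 without either of them. For Mrpl33 they were -0.29 without vehicle replicate 1 and -0.63 without vehicle replicate 2, and for Mrpl48 -0.21 and -0.52. Mrps24 and Mrpl22 turned from 0.34 and 0.40 without vehicle replicate 1 to -0.03 and -0.10 without vehicle replicate 2.

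**Figure D4:**
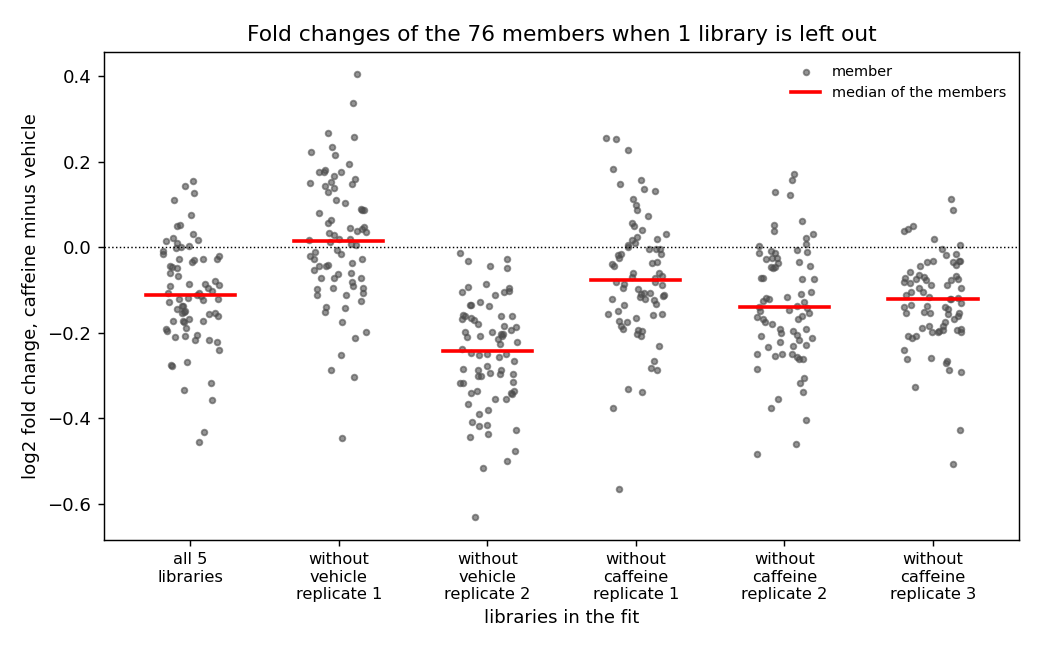
Log2 fold change of each of the 76 members, caffeine minus vehicle, with all 5 libraries and with each library left out, and the median of the members as a red bar. The median is 0.01 without vehicle replicate 1 and -0.24 without vehicle replicate 2, against -0.11 with all libraries.

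Among the caffeine libraries, the log2 ratios of the members were most spread between replicates 1 and 3, with an SD over the members of 0.20, against 0.12 between replicates 1 and 2 and 0.16 between replicates 2 and 3. Mrps11, of the head-to-head pair printed above, measured 27.4 and 28.0 CPM in vehicle pools, and 19.8, 28.5 and 32.9 CPM in caffeine pools, so that caffeine replicates 1 and 3 were the lowest and the highest of all 5. Its partner Mrpl46, which starts 42 bases away, measured 34.8 and 27.9 CPM in vehicle pools, and 25.4, 26.9 and 27.3 CPM in caffeine pools, with no such spread; both genes were singled out after their values were seen. Over the 76 members, Spearman's rho between transcript GC content and the log2 ratio of caffeine replicate 3 to replicate 1 was 0.52, beside 0.31 over all genes with a GC value. These points share the same 2 libraries and are genes, not replicates. Between GC content and the log2 fold change itself, rho was 0.48 over the members and 0.22 over all genes. In the 38 members of lower GC content the median log2 fold change was -0.15 and 35 were negative, and in the 38 of higher GC content it was -0.04 and 27 were negative. After a per-library correction for GC content and length, chosen after seeing the data, the median over all members was -0.06, with 54 negative and 22 positive, beside a median of -0.02 and 54.1% negative over all genes. The corrected fold changes of Mrpl47 and Mrpl33 were -0.32 and -0.28.

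**Figure D5:**
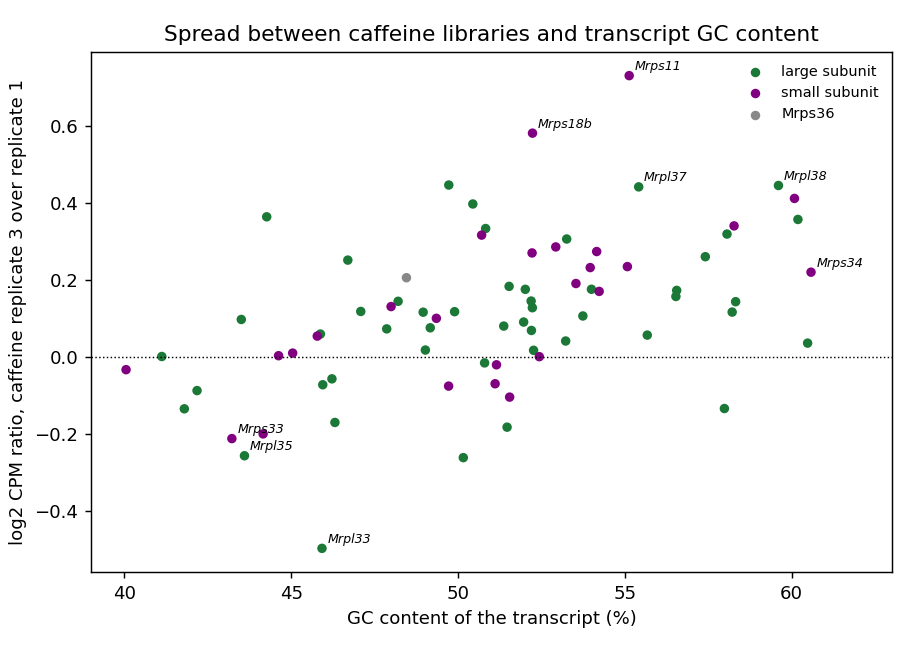
GC content of each member's transcript in percent against the log2 ratio of its CPM in caffeine replicate 3 to that in caffeine replicate 1, by subunit. Spearman's rho over the 76 members is 0.52, with Mrps11 highest and Mrpl33 lowest.

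Most members gave nearly the same fold change on the Ensembl annotation, 72 of 76 within 0.1 on the log2 scale, and Mrpl23, Mrps36 and Mrps10 differed most. On Ensembl, Mrpl23 held only 6.2 to 22.0 counts per library while a pseudogene, Mrpl23-ps1, held 904.9 to 1321.8, so the Ensembl fold change of Mrpl23 (1.45, SE 0.50) describes few reads. On RefSeq the gene measured 28.3 and 21.5 CPM in vehicle pools, and 22.3, 23.9 and 24.9 CPM in caffeine pools (-0.07, SE 0.16). Mrps36 held 72.6 to 135.2 counts on Ensembl beside 602.6 to 1018.7 for Mrps36-ps1 and 285.3 to 486.4 for Mrps36-ps2, and its fold change there was 0.11. For Mrps10 the values were -0.15 on Ensembl and -0.33 on RefSeq. On Ensembl it measured 14.6 and 14.8 CPM in vehicle pools, and 12.4, 12.5 and 14.9 CPM in caffeine pools. Its groups thus overlapped there, unlike on RefSeq. Mrpl48 held 414.9 to 627.4 counts on Ensembl beside 344.6 to 579.0 for Mrpl48-ps, with a fold change of -0.31. The fold changes of Mrpl23, Mrps36 and Mrpl48 are therefore uncertain, since the counting could share reads between near-identical copies.

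Of the 85 RefSeq transcripts of the members, 84 were tested, and 0 passed FDR 0.05 in edgeR's test, as did 0% of all 18418 transcripts tested. At an unadjusted p under 0.05 there were 4 member transcripts, all lower, beside 7.36% of all transcripts, counted in both directions. The smallest p was that of transcript NM_001166031 of Mrps2, the counterpart of bacterial S2, which measured 19.5 and 12.4 CPM in vehicle pools, and 4.81, 5.69 and 9.94 CPM in caffeine pools. All caffeine libraries were lower (log2 fold change -1.23, SE 0.35, edgeR adjusted p = 0.443). The other Mrps2 transcript, NM_080452, measured 59.3 and 55.9 CPM in vehicle pools, and 65.6, 62.4 and 65.7 CPM in caffeine pools, with all caffeine libraries higher (0.16, SE 0.12). The share of Mrps2 counts given to the first was 24.7% and 18.1% in vehicle libraries and 6.86% to 13.2% in caffeine libraries. For Mrpl48 the protein-coding transcript NM_198831 measured 5.22 and 2.13 CPM in vehicle pools, and 1.78, 0.98 and 2.13 CPM in caffeine pools (-1.17, SE 0.49). Most Mrpl48 counts were given to the non-coding transcript NR_003559 (-0.26, SE 0.17), so the gene's value above is mainly that of the latter. The remaining 2 were the only tested transcripts of Mrpl33 and Mrpl47.

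Genes that work with the mitochondrial ribosome, 53 in all, cover translation factors, assembly factors, subunits with other symbols and the machinery of mitochondrial RNA. Of these 53 tested genes 0 passed FDR 0.05 in either direction with edgeR, DESeq2 or limma-voom, and at an unadjusted p under 0.05 each of these tools gave 1 lower and 0 higher. Their median log2 fold change was -0.06, with 31 negative and 22 positive. The smallest p among negative values was that of Chchd1, itself a small-subunit protein, at 52.1 and 47.5 CPM in vehicle pools, and 38.7, 42.2 and 34.5 CPM in caffeine pools (-0.37, SE 0.14, edgeR adjusted p = 0.924). Next came Rnmtl1, a methyltransferase of the large-subunit RNA (-0.32, SE 0.17), and Slirp, which stabilises mitochondrial messenger RNAs (-0.29, SE 0.16). Among positive values the smallest p was that of Polrmt, the mitochondrial RNA polymerase, at 29.0 and 27.4 CPM in vehicle pools, and 30.5, 35.5 and 40.6 CPM in caffeine pools (0.33, SE 0.16). It was followed by Noa1, a GTPase of ribosome assembly (0.21, SE 0.14), and Mterfd1, of the mitochondrial transcription termination factor family (0.23, SE 0.16). Of these 6 genes only Slirp had overlapping groups. Over the 53 genes, both vehicle libraries lay above all caffeine libraries for 11 (20.8%, beside 9.27% of all genes tested) and the opposite order was found for 7 (13.2%, beside 11.2%).

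The 26 members that start head-to-head with another gene had a median log2 fold change of -0.12. Of their tested neighbours 23 were not members themselves, of which 7 were negative, with a median of 0.05; the difference was not tested. Among neighbours with mitochondrial roles, Ndufb5, a complex I subunit gene 308 bases from Mrpl47, had a log2 fold change of -0.20 (SE 0.14). Sars2, the mitochondrial seryl-tRNA synthetase gene 187 bases from Mrps12, had 0.13 (SE 0.18). Ptcd2, 108 bases from Mrps27, had -0.17 (SE 0.14), and Peo1, the mitochondrial DNA helicase gene 116 bases from Mrpl43, had -0.13 (SE 0.13). Beside the mitochondrial genes, 93 tested genes were taken by symbols that start with Rpl, Rps or Rplp and a number. Most encode cytosolic ribosomal proteins, but the list also holds S6 kinase genes (such as Rps6ka1 and Rps6kb1) and Rps19bp1. These 93 genes also had mostly negative values in the same libraries, 77 negative and 16 positive with a median of -0.19. Their summed level was 35564 and 28935 CPM in vehicle replicates 1 and 2 and 28372, 28532 and 27529 CPM in caffeine replicates 1, 2 and 3. The members summed to 4109 and 3490 CPM in vehicle pools, and 3318, 3636 and 3611 CPM in caffeine pools. Both sums were highest in vehicle replicate 1.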

How the data were processed

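RNA of embryonic ventricles was sequenced with a TruSeq RNA kit, per the labels' protocols. The authors deposited estimated counts, unscaled, per gene and per transcript on RefSeq and Ensembl annotations, per the file headers. TopHat, Partek, mm10 and GRCm38 are named in the submitters' processing notes, with neither versions nor roles. How reads matching several sequences were counted is stated in no label or header used here. The p-values measure the spread between separate pools.

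Estimated counts were rounded. RefSeq genes passing filterByExpr were scaled by TMM (factors 0.9695 to 1.0239) and tested two-sided with edgeR 4.0.16 in R 4.3.3 (glmQLFit, robust), with Benjamini-Hochberg adjustment over all genes tested. The standard error (SE) was the absolute log2 fold change divided by the root of F. DESeq2 1.42.0 and limma 3.58.1 were alternatives, among others in the closing section. The edgeR fit was run on simulated counts in which the changed genes had larger fold changes than any member in the main fit. That check does not bear on changes of the members' size. Transcript lengths and GC content come from GENCODE M21 exons clipped to the deposited transcript ends, available for 97.0% of genes. Coordinates are on mm10, with the deposited stop minus 1 as the end, since it lay 1 base past the reference end for 5907 genes with the same start (equal for 249).

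Members and lists were chosen with earlier results of these data known. Named members were the 6 with the smallest p in each direction, the 4 highest and 4 lowest per kilobase, the 3 differing most between annotations and 16 fixed genes (Mrpl3, Mrpl44, Mrps22, Mrps16, Mrpl12, Mrps12, Mrps7, Mrpl11, Mrpl4, Mrps18a, Mrps18b, Mrps18c, Mrps30, Mrps36, Mrps6 and Mrpl33). From the list of genes that work with the mitochondrial ribosome, the 3 with the smallest p in each direction were named. Assignments to subunits and descent came from textbook knowledge.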

Additional observations from a re-analysis of the deposited data

How the results depend on the processing

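No member passed FDR 0.05 under any alternative run (edgeR with other scalings, filters, the Ensembl table, each library left out, the replicate block or without robust estimation, DESeq2, limma-voom, the GC content and length correction) or FDR 0.1 with edgeR, with smallest adjusted p from 0.344 to 1.00, and no member transcript passed. With 2 vehicle libraries, a difference between 1 of them and the rest cannot be told apart from one between groups. In fits with 1 vehicle library, that library is assumed to vary like the caffeine group.

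With each library left out in turn, the median log2 fold change ran from -0.24 to 0.014 over the members, from -0.25 to 0.016 over the large and from -0.21 to 0.0021 over the small subunit. Negative members numbered 35 to 76, and members with non-overlapping groups 20 to 62, where fewer libraries make a gap more frequent in all genes too. Without caffeine replicate 1, 2 or 3, both vehicle libraries were higher for 17, 26 and 21 members. The shares of all genes in that order were 16.7%, 14.4% and 14.5%. The opposite order held for 3, 0 and 0 members, beside 18.4%, 16.9% and 16.5% of all genes. Scaling by total counts gave 9 members with non-overlapping groups, all higher in vehicle, beside 5.18% of all genes in that order. Other alternatives moved the median of the members to between -0.12 and -0.05. The labels give no pairing, and deviations of equally numbered libraries correlated at -0.03 and 0.16. With the replicate number as a block, which drops caffeine replicate 3 from the contrast, the median was -0.12 with 69 members negative and 0 past FDR 0.05, and 52 genes in all were called against 1.

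Of 544 fold changes of the 34 named members under alternatives, 504 kept their sign, and 13 members kept it throughout. The cause of the reversals was not tested. Under the block these were Mrpl37 (-0.064), Mrpl4 (-0.074) and Mrps18b (-0.042). With the GC content and length correction they were Mrpl4 (-0.086), Mrps18c (0.068) and Mrps6 (0.00043), and on Ensembl Mrpl23 (1.45) and Mrps36 (0.11). Mrpl4, at about 0, gave -0.010 with DESeq2 and RLE, -0.00093 with limma-voom and -4.0e-05 without the filter, and Mrps12 gave 0.0016 with no scaling. With each library left out, the values ran from -0.34 to 0.016 for Mrpl11, -0.27 to 0.080 for Mrpl12, -0.10 to 0.40 for Mrpl22, -0.28 to 0.14 for Mrpl23, -0.42 to 0.086 for Mrpl35, -0.093 to 0.18 for Mrpl37, -0.17 to 0.16 for Mrpl4, -0.14 to 0.15 for Mrpl44, -0.32 to 0.0052 for Mrpl52, -0.087 to 0.22 for Mrpl55, -0.25 to 0.13 for Mrps12, -0.35 to 0.012 for Mrps16, -0.29 to 0.064 for Mrps18a, -0.044 to 0.27 for Mrps18b, -0.43 to 0.044 for Mrps21, -0.032 to 0.34 for Mrps24, -0.015 to 0.22 for Mrps34, -0.34 to 0.020 for Mrps36, -0.21 to 0.020 for Mrps6 and -0.29 to 0.032 for Mrps7.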
